A study of Mus musculus with 15 samples.

Results

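The comparison described here sets 2 groups of libraries against each other that were both labelled as carrying a short hairpin RNA against TMEM45A. They are the columns numbered 2 and the columns numbered 4 of the shTMEM45A count table, 3 libraries each, 6 of the 15 libraries of the series. The sets are called set 2 and set 4 after those columns. Per the labels, all 15 libraries came from MDA-MB-468, a basal-like breast cancer line in wide use, grown in DMEM with serum. The labelled groups were the control hairpin (NC), shSHCBP1_1 and shSHCBP1_2, and shTMEM45A_1 and shTMEM45A_2, with 3 libraries in each. All 6 libraries compared are thus labelled as carrying a hairpin against the same transcript, and NC stands in another table and entered only as side values. The labels number the TMEM45A sets 1 and 2. The columns numbered 2 were matched to the labelled second set by name and those numbered 4 to the remaining set by elimination. The way the hairpins were delivered, whether clones were picked, the time of RNA harvest and whether the 3 libraries of a set came from separate cultures are not stated in the labels or the study's text. The p-values therefore describe the variation among these 6 libraries, and that variation may be technical.

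A short hairpin RNA is cut by Dicer to a small duplex, and its guide strand is loaded into an Argonaute protein. The guide pairs along its length with the intended transcript, which is then cut. Bases 2 to 8 of the guide, the seed, can also pair with other transcripts and lower them to a lesser degree, so hairpins of different seed against the same target are commonly compared to see which transcripts follow the hairpin and which follow the target. TMEM45A encodes a transmembrane protein that has been studied in keratinocytes, where it lies in Golgi membranes, and in the hypoxia response of breast cancer cells.

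The study's text gives the 2 hairpins against TMEM45A. Both have 97 bases in the layout of a miR-30 type hairpin, with 22-base arms around a 19-base loop. The arm 3′ of the loop, which is the guide in this layout, is printed 5′ to 3′ with the seed in capitals, because the seed is the part by which the 2 hairpins would differ at unintended transcripts.
sh-TMEM45A-1: tTAAATTCaaatactttaacca
sh-TMEM45A-2: tCAGAATActctttgtacacca
The seeds share the base at 3 of 7 positions, and the whole guides at 10 of 22. The first guide has 4 G or C bases and the second has 8. In both, the other arm pairs with the guide at 21 of 22 bases. Which of these guides each set carries could not be told from the column numbers, so no change below is tied to a sequence.

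Totals ran from 14754541 to 16484000 counts per library. Each library differed from its set mates by more than counting noise, with a chi-square per gene of 3.56 to 5.21 within set 4 and 4.82 to 8.58 within set 2. On the first principal component, 25.9% of the variance, replicates 1, 2 and 3 of set 2 lay at -1.35, -42.5 and -4.58. Set 4 lay between 14.8 and 18.8 there, without overlap, and replicate 2 of set 2 lay far from the rest. Replicate 1 of set 2 lay lowest on the second (22.7%, at -34.8) and replicate 3 of set 2 highest on the third (19.6%, at 36.7). Correlations of log2 CPM were 0.9769 to 0.9805 within set 2, 0.9834 to 0.9847 within set 4 and 0.977 to 0.9815 between the sets. The share of counts in ribosomal protein genes ran from 19.7 to 20.1% in set 2 and from 19.7 to 20.3% in set 4 (exact permutation test, two-sided, p = 0.7). Fewer gene names had a count in set 2 (22880 ± 326, SD, n = 3) than in set 4 (23520 ± 131), without overlap. The exact permutation p was 0.1, the smallest that 3 against 3 allows.

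The labelled line was checked against epithelial markers. Of 28 keratin and epithelial markers, 7 had 0 counts in all 6 libraries, namely KRT5, KRT6A, KRT6B, KRT16, KRT19, TP63 and S100A8, and 16 averaged under 1 CPM (counts scaled to library size). KRT14 had 0 or 1 count per library, and 0 counts allow at most 0.182 to 0.203 CPM (3 counts of the total, counting error only). EGFR, which is amplified in MDA-MB-468, lay between 6.14 and 8.61 CPM. KRT8 and KRT18, keratins of simple epithelia, were present at 134.2 to 155.7 and 117.2 to 143.9 CPM. The epithelial markers EPCAM and CDH1 were lower, at 5.7 to 7.9 and 5.0 to 8.5 CPM of library totals. Other basal markers were low, with KRT17 at 0.629 to 2.13, CDH3 at 5.42 to 9.37 and S100A2 at 7.45 to 11.6 CPM. The basal keratins KRT5, KRT6A, KRT6B, KRT14 and KRT16 were thus at or near 0, and in NC KRT5 had 0 counts and KRT14 had 2 to 3. Neurofilament and developmental kidney genes summed to 308.7 to 310.8 CPM in set 2 and 333.4 to 367.9 in set 4, without overlap. By library totals, NEFL lay between 47.0 and 62.7 CPM, SIX2 between 55.2 and 66.8 and GATA2 between 50.9 and 70.4. Others were near 0, with at most 4 counts of PAX8 and 7 of TUBB3 in a library. NEFM, a neurofilament subunit, was the only called member of the 12 tested (8.33%) and was lower in set 2. Of the 12, 9 lay below 0 and 3 above, with a median of -0.15. In 4 every set 2 library lay below set 4, and in 2 every one lay above. Of all 16702 genes tested, 1460 lay below and 1405 above in this way. The 2 above were INA, another neuronal filament gene, and PAX2, a kidney factor. Neither passed (log2 differences of 0.38 and 0.14, edgeR adjusted p = 0.0571 and 0.793). Immune markers summed to 17.45 to 19.8 CPM against 11.4 to 16.9, with 4 of 14 at 0 in every library, and fibroblast and endothelial markers to 30.4 to 32.6 against 28.05 to 34.1, with 1 of 14 at 0. No member of either list was called, and the part of other cells in the results was not tested.

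The targeted transcript comes first. TMEM45A stood at 17.6, 16.5 and 17.5 CPM in set 2 and at 16.1, 13.9 and 17.2 CPM in set 4, so the sets overlapped. The means were 17.2 ± 0.583 and 15.7 ± 1.69 CPM (SD, n = 3), a log2 difference, set 2 minus set 4, of 0.13 (SE 0.13, edgeR adjusted p = 0.763). The 95% interval of that difference ran from -0.14 to 0.40. Its close paralog TMEM45B was low, at 2.03 ± 0.84 against 1.55 ± 0.424 CPM (log2 difference 0.38, interval -0.51 to 1.27). SHCBP1, a binding partner of the adaptor SHC and the target of the series' other hairpins, stood at 50.4, 60.2 and 49.0 CPM in set 2 against 46.3, 47.7 and 45.1 CPM in set 4. These sets did not overlap, but the log2 difference of 0.20 did not pass (SE 0.09, interval 0.0045 to 0.39, adjusted p = 0.412).

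Across the transcriptome few genes were called, and most of those were lower in set 2. Of 16702 genes tested, 129 passed at an adjusted p of 0.05, which is 0.772%. Of these, 44 were higher in set 2 (0.263%) and 85 were lower (0.509%). Only 7 of the 129 differed more than 2-fold: RPL9P9, FCRLB and HSPA6 were higher in set 2, and RHOB, AC005034.3, LENG9 and HMGCS1 were lower. Another 31 changed by 1.5-fold to 2-fold. The median log2 difference over all genes was 0.0017, and 90% of genes lay between -0.50 and 0.51 around it. At an unadjusted p of 0.05 or less there were 1945 genes.

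**Figure D1:**
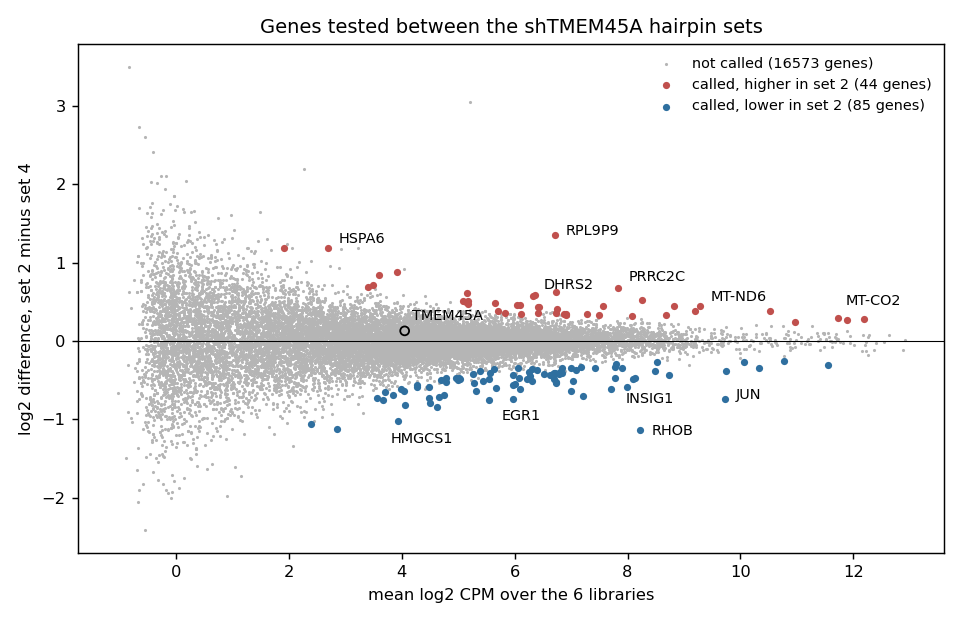
Log2 difference (set 2 minus set 4) of each of 16702 genes against its mean log2 CPM over the 6 libraries. Grey points did not pass, red and blue points passed as higher (44) or lower (85) in set 2, and the open circle is TMEM45A at 0.13. RHOB (-1.13) and JUN (-0.75) are called falls at high levels.

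The count depended on single libraries. It was 273 without replicate 2 of set 2, of which 46.9% were higher, 78 without replicate 3 of set 2, and 57, 63 and 56 without replicate 1, 2 or 3 of set 4. Of the 129 genes, 37 passed in each of the 6 fits that left out 1 library, 10 higher and 27 lower. All 129 kept their direction in every alternative run. In all 129 the sets did not overlap, so leaving out 1 library could hardly reverse a direction, and the kept direction adds little. Of all 16702 genes tested, 1405 lay wholly above and 1460 wholly below in set 2.

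The list with the most calls was that of growth factor early response genes. These genes are switched on within minutes of a mitogen, stress or fresh serum, through serum response factor, ternary complex factors and AP-1, and their short-lived transcripts encode transcription factors, phosphatases and other feedback proteins. Of 34 members tested, 10 were lower in set 2 and none was higher, 29.4% of the list, where 0.509% of all genes were lower. Their median log2 difference was -0.26, against 0.0017 over all genes. In 14 of the 34, every set 2 library lay below every set 4 library, and in 2 every one lay above. Of all 16702 genes tested, 1460 lay below and 1405 above in this way. The summed level was 2170 to 2216 CPM in set 2 and 3029 to 3185 CPM in set 4. In cultures measured in bulk, fewer cells of a kind and less RNA per cell cannot be told apart.

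Among the AP-1 subunits, JUN stood at 637, 629 and 623 CPM in set 2 and at 1040.5, 1011 and 1115 CPM in set 4. The set 2 libraries were tightly grouped and all lay well below set 4, a log2 difference of -0.75 (SE 0.06, edgeR adjusted p = 3.27e-08). FOS, the usual partner of JUN, stood at 29.2, 38.4 and 36.2 CPM against 60.7, 60.4 and 54.3 CPM (-0.76, SE 0.10, adjusted p = 0.000243). FOSB and JUND, further AP-1 subunits, fell by 0.48 and 0.43 on the log2 scale. FOSB went from 311, 321 and 330.0 CPM in set 4 to 218, 228 and 244 CPM in set 2. FOSL1, FOSL2 and JUNB did not pass, with log2 differences of -0.15, -0.23 and -0.35, the last with adjusted p = 0.0623 and no overlap between the sets.

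Other transcription factors of the list moved in the same direction. EGR1, a zinc finger factor, stood at 47.7, 45.1 and 48.2 CPM in set 2 and at 79.7, 72.8 and 82.1 CPM in set 4 (-0.73, SE 0.08, adjusted p = 2.59e-05). KLF6, a zinc finger factor of the Krüppel-like family, fell by 0.64 on the log2 scale, from 48.1 ± 3.54 to 30.9 ± 1.57 CPM. MYC, a growth-promoting factor, fell by 0.48, from 256.5 ± 14.5 to 184.3 ± 7.58 CPM. EGR3, EGR2, KLF4 and KLF10 did not pass, and EGR2 and EGR3 were too low, at about 1 to 3 CPM, for a difference of this size to be detectable.

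Feedback and signalling genes completed the 10. DUSP1, a phosphatase that switches off MAP kinases, fell by 0.57 on the log2 scale, from 74.4 ± 7.04 to 50.2 ± 2.38 CPM. CYR61, a secreted matrix protein and YAP target, fell by 0.41 (119.6 ± 6.22 to 90.1 ± 9.84 CPM), and IER5 by 0.40 (86.5 ± 3.9 to 65.5 ± 3.55 CPM). The other YAP targets of the list, CTGF, AMOTL2 and ANKRD1, had log2 differences of -0.07, -0.15 and -0.12 and did not pass. The 2 members in which every set 2 library lay above set 4 were the ETS factors ETV4 and ETV5 (0.37 and 0.69, adjusted p = 0.635 and 0.611, both under 5 CPM). FOSB, JUND, KLF6, MYC, DUSP1, CYR61, IER5 and the members that did not pass are named here after their values were seen.

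**Figure D2:**
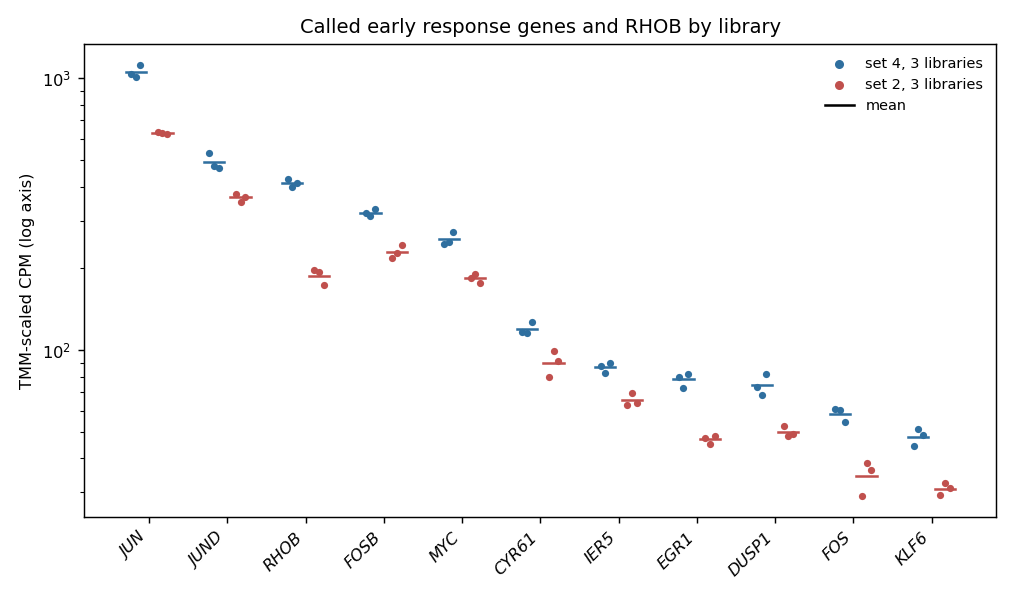
TMM-scaled CPM on a log axis for the 10 early response genes called lower in set 2 and for RHOB, with set 4 libraries in blue, set 2 libraries in red and a line at each mean of 3. In each of the 11 genes the 3 set 2 libraries lie below the 3 set 4 libraries, and in all 129 called genes the sets did not overlap.

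RHOB, an inducible small GTPase of endosomes, was the largest named fall. It stood at 197, 194 and 173 CPM in set 2 and at 427, 397 and 411 CPM in set 4, so that the highest set 2 library lay well under the lowest of set 4. The log2 difference was -1.13 (SE 0.07, edgeR adjusted p = 5.47e-10). ATF3, a stress-induced partner of JUN, stood at 201, 213 and 199 CPM against 309, 295 and 317 CPM (-0.59, SE 0.06). GADD45A, a growth arrest gene also under p53, stood at 96.0, 104 and 101 CPM against 142, 162 and 166 CPM (-0.64, SE 0.07). It was the only called gene of 31 tested in the p53 and CDK inhibitor list (3.23%, where 0.509% of all genes were lower). CDKN1A of that list was at -0.17 (adjusted p = 0.478). Chosen after their values were seen, ADAMTS1 (-0.70), ARC (-0.59), BHLHE40 (-0.62), CSRNP1 (-0.53), TRIB1 (-0.52), MAFF (-0.50) and BTG1 (-0.47) were also called lower.

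With each library left out in turn, 8 to 10 of the 34 early response genes were called lower and none higher in each of the 6 fits. The pair of sets labelled shSHCBP1 was fitted the same way for comparison. There 8 of the same 34 genes were higher in shSHCBP1_2 than in shSHCBP1_1 and none was lower (median 0.15), with EGR1 at 0.56 and FOS at 0.45 (adjusted p = 2.06e-10 and 6.16e-07). JUN, ATF3 and RHOB did not pass in that pair (0.02, 0.05 and 0.05). Other lists held calls there too. Of 35 cholesterol and fatty acid synthesis genes, 4 were lower in shSHCBP1_2 and 0 higher. Of 29 integrated stress response genes, 10 were higher and 0 lower, and of 15 mitochondrial transcripts 3 were higher and 1 lower. HSPA6 (1.26) and DHRS2 (0.82), higher in set 2, also passed above 0 there, as did DDIT4 (0.31), which was lower in set 2. The number attached to a hairpin has no direction shared between targets, so only the sizes are comparable, and the difference between the pairs was not tested.

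Cholesterol and fatty acid synthesis genes also held calls in a single direction. They are driven by the SREBP factors, which SCAP carries from the endoplasmic reticulum to the Golgi when sterols are scarce and which INSIG proteins hold back. Of 34 members tested, 5 were lower in set 2 (14.7%, where 0.509% of all genes were lower) and none was higher. A log2 difference below 0 was found in 27 of the 34, against 49.6% of all genes. The median was -0.13. In 14 members every set 2 library lay below every set 4 library, and in 2 every one lay above. Among the 16702 genes tested, 1460 lay wholly below and 1405 wholly above.

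HMGCS1, which makes HMG-CoA for the mevalonate pathway, stood at 11.04, 9.62 and 9.39 CPM in set 2 and at 19.3, 19.7 and 22.2 CPM in set 4. The log2 difference was -1.02 (SE 0.14, edgeR adjusted p = 0.000236). INSIG1, the feedback inhibitor and itself an SREBP target, stood at 156, 176 and 166 CPM against 254, 252 and 253 CPM (-0.61, SE 0.07, adjusted p = 1.57e-05). The set 4 libraries were almost equal to each other for INSIG1, and every set 2 library was far below them. IDI1, isopentenyl diphosphate isomerase, fell by 0.39 on the log2 scale (127.0 ± 5.1 to 96.8 ± 6.11 CPM), and FDFT1, squalene synthase, by 0.35 (128.1 ± 2.15 to 100.7 ± 6.5 CPM). IDI1 and FDFT1 are named after their values were seen.

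The members just short of the threshold were SREBF2 (-0.31, adjusted p = 0.0709), which encodes the sterol-responsive SREBP, and SQLE (-0.33, adjusted p = 0.0725), squalene epoxidase. Of the fatty acid genes, FASN (-0.20), SCD (-0.15) and ACACA (-0.33) lay below set 4 in every set 2 library without passing, and ACLY was at -0.06. SCAP and SREBF1 were at 0.00 and 0.09. Without 1 library the number of called members ranged from 2 to 6, being 2 without replicate 3 of set 2, replicate 2 of set 4 or replicate 3 of set 4. HMGCS1 and INSIG1 passed in all alternatives run.

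**Figure D3:**
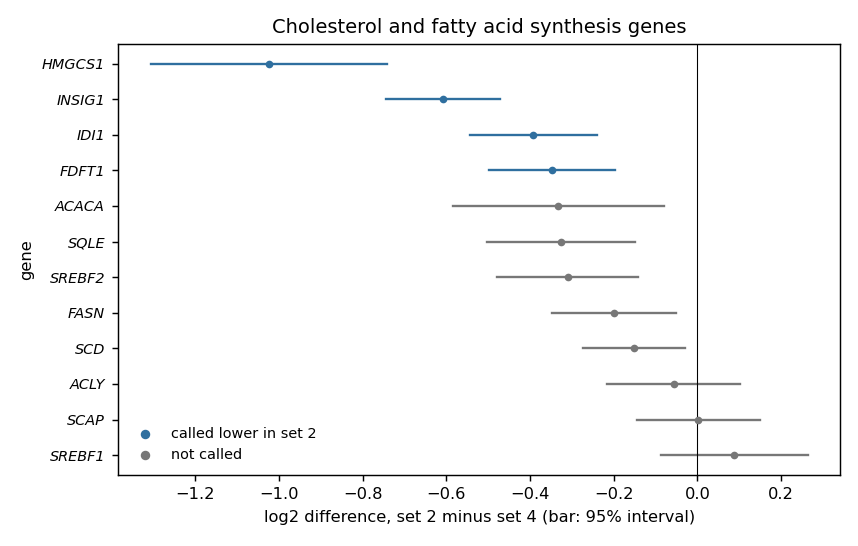
Log2 difference (set 2 minus set 4) with its 95% interval for 12 of the 34 cholesterol and fatty acid synthesis genes tested, those named in the text, ordered by difference. Blue marks 4 genes called lower in set 2, led by HMGCS1 at -1.02, and grey marks 8 that did not pass.

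Transcripts of the mitochondrial genome went the other way. The mitochondrial genome is copied into long polycistronic RNAs from both strands, which are cut into messenger, ribosomal and transfer RNAs. All 15 messenger and ribosomal RNAs tested had a log2 difference above 0, with a median of 0.25. Of these, 6 were higher in set 2 and none was lower, where 0.263% of all genes were higher. The 6 were MT-ND6, MT-CYB, MT-ND1, MT-CO2, MT-CO3 and MT-ND2. The other 9 did not pass, and MT-CO1 and MT-RNR2, with log2 differences of 0.07 each, were the smallest.

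MT-ND6, a complex I subunit and the only messenger RNA read from the light strand promoter, stood at 807, 677 and 663 CPM in set 2 and at 503, 540 and 536 CPM in set 4 (0.44, SE 0.07, edgeR adjusted p = 0.000884). MT-CYB, the cytochrome b of complex III, stood at 1718, 1695 and 1586 CPM against 1158, 1267 and 1425 CPM (0.38, SE 0.06, adjusted p = 0.0024). In both, every set 2 library lay above every set 4 library. MT-CO2, a core subunit of cytochrome oxidase, stood at 4918, 5265 and 5092 CPM against 3982, 4130 and 4463 CPM (0.28, SE 0.05). Among 12 mitochondrial transfer RNA names tested, 3 were higher and all 12 lay above 0. MT-TN, the transfer RNA for asparagine, was among the largest named rises (98.6 ± 7.39 against 65.6 ± 13.4 CPM, 0.59). Reads carry no strand here, so MT-ND6 cannot be told apart from RNA of the other strand. The same holds for transfer RNA names that lie against or beside another transcript.

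All genes named MT- together took 3.92, 4.01 and 3.76% of counts in set 2 and 3.27, 3.39 and 3.57% in set 4. The sets did not overlap, and the difference of the means was 0.483 percentage points (exact permutation test, two-sided, p = 0.1, the smallest that 3 against 3 allows). NC took 3.48 to 3.58% and the libraries labelled shSHCBP1 3.51 to 3.65%, so NC lay between set 2 and the 2 lower libraries of set 4. The number of calls depended on single libraries: 3 transcripts of 15 passed without replicate 1 of set 4 and 2 without replicate 2, and 8 without replicate 2 of set 2. Among the nuclear genes of oxidative phosphorylation 0 of 68 were called, which is near the share of all genes, and their median was 0.02. With the mitochondrial genes left out of scaling and testing, an alternative added after the data were seen, 117 genes passed, 33 higher and 84 lower.

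**Figure D4:**
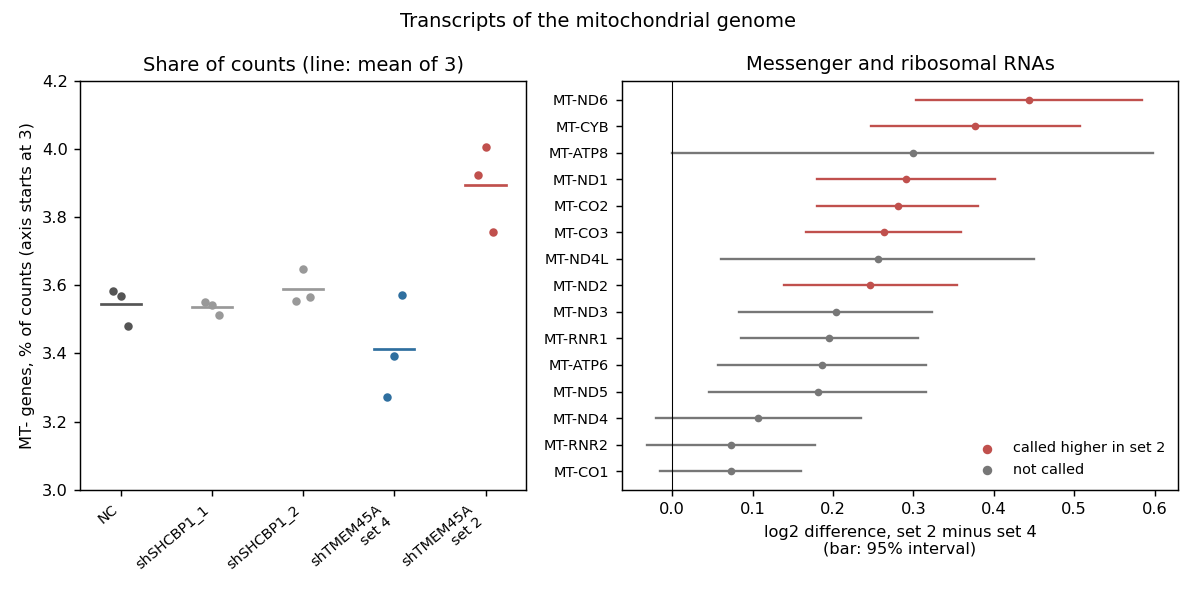
Left, share of counts in genes named MT- for each of the 15 libraries (points) with a line at the mean of 3 per group, on an axis that starts at 3%. Right, log2 difference (set 2 minus set 4) with its 95% interval for the 15 messenger and ribosomal RNAs of the mitochondrial genome, all above 0, with the 6 called higher in set 2 in red.

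The integrated stress response list was split. This response to amino acid shortage, misfolded protein or double-stranded RNA acts through the factor ATF4 and its targets. Of 29 members tested, 2 were higher in set 2 and 2 were lower (6.9% each), with a median of 0.06. Of all genes, 0.263% were higher and 0.509% were lower. NUPR1, a stress-induced nuclear protein, stood at 14.8, 13.6 and 13.1 CPM against 7.63, 9.31 and 8.4 CPM (0.71, SE 0.15). TRIB3, a pseudokinase that restrains AKT, stood at 39.1, 41.3 and 43.4 CPM against 28.8, 29.9 and 29.2 CPM (0.49, SE 0.10). Both rises were lost without replicate 3 of set 2 or without any of the 3 libraries of set 4. DDIT4, an inhibitor of mTORC1, stood at 15.0, 20.4 and 17.4 CPM against 29.7, 34.6 and 30.6 CPM (-0.85, SE 0.12), and with ATF3 it made up the falls. ATF4 itself was at 0.09 (adjusted p = 0.545), DDIT3 at 0.15 (adjusted p = 0.557) and CHAC1 at 0.47 (adjusted p = 0.305).

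The other stress lists held few calls. In lists of this size even 1 call exceeds the share of all genes (0.263% higher in set 2, 0.509% lower). Among cytosolic heat shock genes, 1 of 18 was higher and 1 lower (5.56% each). HSPA6, a strictly inducible HSP70, stood at 7.51, 8.86 and 9.97 CPM against 4.48, 2.84 and 4.27 CPM (1.18, SE 0.22), and the call was lost without replicate 3 of set 2 or replicate 2 of set 4, with adjusted p up to 0.0687. HSP90AB1, the constitutive HSP90, stood at 974.4 ± 21.7 against 1173 ± 19.2 CPM (-0.27). HSPA1A, another inducible HSP70, was lower in set 2 without passing (-0.57, adjusted p = 0.0681). In the endoplasmic reticulum list, 1 of 27 was called (3.7%), the disulfide isomerase PDIA6 (-0.48). In the NRF2 and glutathione list, 1 of 28 was called (3.57%), the transketolase TKT (-0.27), and SLC7A11, the cystine transporter, was at 0.46 (adjusted p = 0.258). PDIA6 was lost in 4 and TKT in 5 of the 16 alternatives run. None of 13 disulfidptosis genes was called, which is near the share of all genes, and their median was 0.0007.

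Lists that bear on hairpins themselves held no call, which is near the share of all genes (0.772% called). Among 20 genes of small RNA processing and silencing, 0 passed and the median was 0.05. AGO2, the Argonaute that cuts the target, was at -0.12 (interval -0.30 to 0.08), and DICER1 at 0.06 (interval -0.18 to 0.31). Among 39 genes of double-stranded RNA sensing and the interferon response, 0 passed and the median was -0.04. ISG15 stood at 162.9 ± 8.52 CPM in set 2 and 162.9 ± 13.9 CPM in set 4, a log2 difference of 0.00 (interval -0.15 to 0.15). IFIT1, which binds foreign RNA, was lower in every set 2 library (57.6 ± 3.96 against 70.0 ± 2.39 CPM, -0.28) without passing, with adjusted p = 0.119. A gene that did not pass is not thereby shown to be equal in the sets.

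In growth and housekeeping lists the calls were scattered. Lists with a call stood above the shares of all genes, 0.263% higher in set 2 and 0.509% lower, though on 1 or 2 genes per direction. DNA replication genes had 1 of 42 higher (2.38%), POLA2 of the primase complex (0.36), and 2 lower (4.76%). MCM2, of the replicative helicase, stood at 22.8, 13.9 and 13.8 CPM against 24.1, 26.0 and 33.6 CPM (-0.73, SE 0.16), so that replicate 1 of set 2 lay close to the lowest set 4 library. GINS4, of the same helicase, stood at 8.92, 9.05 and 8.56 CPM against 13.9, 14.2 and 15.9 CPM (-0.73, SE 0.15). Each was lost without replicate 3 of set 2 and in at least 2 fits without a set 4 library. Of 42 translation genes tested, EIF5B (0.38) and CARS, the cysteine tRNA synthetase (0.33), were higher (4.76%). The elongation factor EEF2 was lower (-0.31, 2.38%). EEF2 stood at 2701, 2667 and 2661 CPM against 3221, 3133 and 3599 CPM and passed in all alternatives run. The glycolysis and hypoxia list had 2 of 37 lower (5.41%), NDRG1 (-0.39) and the phosphofructokinase PFKM (-0.35). The remaining calls included HNRNPA1 (-0.25, 1 of 37 splicing genes, 2.7%) and GABARAPL1 (-0.36, 1 of 32 lysosome and autophagy genes, 3.12%). The others were SNHG12 (0.36) and LRRC75A-AS1 (-0.33), both of 19 small nucleolar RNA host genes (5.26% each). LRRC75A-AS1 is an antisense gene and uncertain because the reads carry no strand. Of 16 alternatives run, POLA2 and PFKM were lost in 6 each, GABARAPL1 in 8 and LRRC75A-AS1 in 2. CARS, HNRNPA1 and SNHG12 were lost in 4 each, and EIF5B in 1.

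No member was called in 16 of the 30 lists by role. With 0.772% of all genes called, a list of this size without a call is near that share. They include 79 cytosolic ribosomal protein genes (median 0.0035), 44 mitotic genes, 34 proteasome subunits (0.07), 33 COPI, COPII and Golgi genes, 39 actin and WAVE genes and 30 homologous recombination genes. The matrix and mesenchymal list had 0 of 36 called, although 29 of 36 lay below 0 and the median was -0.10. The remaining lists without a call were the TMEM45 family and hairpin targets (3 tested), NF-kB targets (22), metallothioneins (6), replication-dependent histones (19, median 0.17) and class I antigen presentation (14). In all, 42 of the 129 called genes belonged to a list by role and 87 to none.

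**Figure D5:**
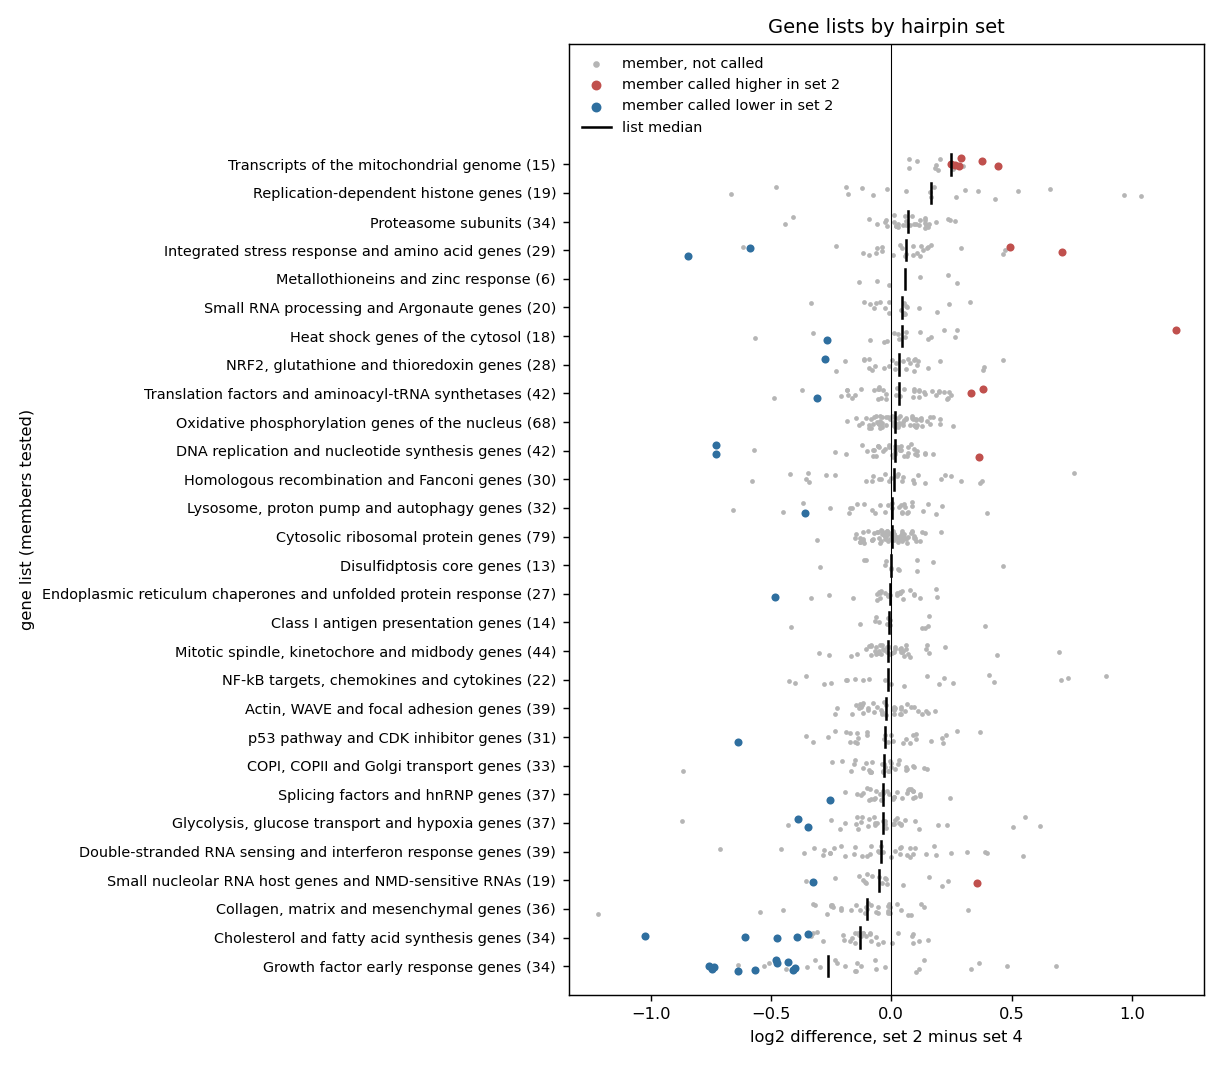
Log2 difference (set 2 minus set 4) of each tested member of the 29 lists by role with more than 5 members tested, ordered by list median (black line). Grey members did not pass, and the called members are all blue in the early response and cholesterol lists (10 and 5 lower in set 2) and all red in the mitochondrial list (6 higher).

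The largest named rises also included genes outside the lists. PRRC2C, an RNA-binding protein of stress granules, stood at 274, 310 and 253 CPM in set 2 and at 165, 203 and 158 CPM in set 4 (0.67, SE 0.09, edgeR adjusted p = 0.000199). BAZ1A, a chromatin remodelling subunit, stood at 125, 147 and 117 CPM against 79.3, 93.5 and 79.3 CPM (0.62, SE 0.09). HMGN5, a nucleosome-binding protein, stood at 320, 417 and 345 CPM against 249, 280 and 223 CPM (0.53, SE 0.09). In these 3 genes and in EIF5B, replicate 2 was the highest library of each set. Replicate 2 of set 2 is the library that lay apart on the first principal component, and all 3 genes also passed without it. TAF3, of the general factor TFIID (0.61), and MED19, of Mediator (0.52), rose as well, and MED19 was lost without replicate 1 or 3 of set 4. DHRS2, a short-chain dehydrogenase, stood at 91.6, 97.1 and 98.6 CPM against 64.1, 65.6 and 63.2 CPM (0.57, SE 0.08, adjusted p = 0.000233) and passed in all alternatives run.

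Rises of pseudogene names are uncertain, since reads can be shared with their parent genes. RPL9P9 had the largest called difference (1.36, SE 0.32, adjusted p = 0.0494), but its set 4 libraries ranged from 21.3 to 118 CPM against 124 to 194 CPM in set 2. KLKP1 (0.88), CBWD4P (0.84) and, among the falls, DDX12P (-0.81) are of the same kind. Of 16 alternatives run, KLKP1 was lost in 3, CBWD4P in 5 and DDX12P in 4. ZNF75A, a zinc finger gene, stood at 12.9 ± 1.12 against 7.99 ± 0.388 CPM (0.69) and was lost in 5 of the 6 fits without a library. Among the falls, IRS4, an insulin receptor substrate, stood at 15.5, 17.7 and 16.2 CPM against 29.7, 28.4 and 27.3 CPM (-0.79, SE 0.11). MYLIP, a ubiquitin ligase, stood at 9.46 ± 1.22 against 15.9 ± 1.15 CPM (-0.75), and LENG9 at 3.3 ± 0.542 against 6.89 ± 1.48 CPM (-1.06). MYLIP was lost in 3 and LENG9 in 6 of the 16 alternatives. NEFM stood at 65.7, 69.7 and 61.1 CPM against 86.3, 89.4 and 104 CPM (-0.51, SE 0.09).

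The called genes were also placed beside NC, on a common scale of all 15 libraries. NC was counted in the other table, so hairpin and table cannot be told apart in these values, and no test was made. Of the 85 genes lower in set 2, the NC mean lay above both sets in 68, between them in 7 and below both in 10. Of the 44 higher in set 2, it lay below both sets in 34, between them in 6 and above both in 4. For most called genes set 2 was thus the set farther from NC. RHOB stood at 2803 ± 44.9 CPM in NC, 465.6 ± 17.1 in set 4 and 211.9 ± 14.2 in set 2. JUN stood at 1876 ± 47.0, 1194 ± 57.0 and 709.9 ± 10.2 CPM. INSIG1 stood at 587.1 ± 15.3, 286.2 ± 1.22 and 187.1 ± 9.96 CPM. FOS stood at 67.4 ± 3.71, 66.2 ± 4.27 and 39.0 ± 5.25 CPM, so that NC and set 4 differed by less than their SD. FOSB and MYC were above NC in both sets, with FOSB at 29.2 ± 2.4 in NC, 362.5 ± 9.68 in set 4 and 259.2 ± 14.5 in set 2, and MYC at 165.9 ± 3.21, 290.0 ± 15.5 and 207.7 ± 7.83 CPM. MT-CYB stood at 1015 ± 15.8, 1451 ± 148 and 1878 ± 78.9 CPM, whereas MT-ND6 stood at 1060.0 ± 42.5, 595.0 ± 22.8 and 807.1 ± 92.4 CPM, so that NC was the lowest of the 3 groups for MT-CYB and the highest for MT-ND6.

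The distance between the 2 hairpin sets was set beside that of the shSHCBP1 pair. In that pair 1674 of 17567 genes passed (9.53%), 894 higher and 780 lower in shSHCBP1_2, and 33 of them changed more than 2-fold. The biological coefficient of variation fitted within sets was 3.33% there and 10.6% between the shTMEM45A libraries, so the same difference is less easily called here. The SD of log2 differences over genes of at least 2 log2 CPM was 0.151 in the shSHCBP1 pair and 0.198 here. These are separate fits on different libraries, and the difference between the pairs was not tested.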

How the data were processed

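Polyadenylated RNA was sequenced as paired ends after NEBNext Ultra preparation, which does not mark the strand, per the labels' protocols. The authors deposited raw counts, as integers for each gene symbol. The aligner and the counter were not given in the sources used here. A build, mm10, is named in the submitters' processing notes and the labels name the mouse, whereas the symbols are human. The reference at hand was that of the mouse, so coordinates, promoters and lengths were not used. Repeated names (177) and date-like names (25) were dropped, in all 200 names on 1768 of 58735 rows, which held 0.143% of counts.

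The 6 shTMEM45A libraries were fitted alone with edgeR 4.0.16 (R 4.3.3): filterByExpr (count minimum 10, total minimum 15), TMM scaling, the quasi-likelihood F test, and Benjamini-Hochberg adjustment over 16702 genes with a threshold of 0.05. Fold changes are set 2 minus set 4 on the log2 scale. Levels are TMM-scaled CPM, and each SE was computed from the fold change and its F value. Values beside NC use TMM over all 15 libraries. The script was tested on simulated data. Alternatives were other scalings and filters, DESeq2 1.42.0, limma 3.58.1 voom, a fit of all 15 libraries, a replicate block and each library left out.

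The text names TMEM45A, TMEM45B and SHCBP1, then the 12 largest rises and 12 largest falls among called genes of mean log2 CPM of at least 2 without overlap (leaving out clone-type names, LINC numbers and numbered pseudogenes), then up to 2 called rises and 2 called falls of each of 34 gene lists. These gave 47 genes. Some results are not reported here. The comparison, lists and rule were chosen with earlier results of these data known. Older symbols were matched to list names. Sequences come from the study's own text.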

Additional observations from a re-analysis of the deposited data

How the results depend on the processing

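The 129 genes called became 315 with no filter on low counts (111 higher, 204 lower, 33 over 2-fold), 267 by DESeq2 (99, 168 and 14) and 1004 with all 15 libraries in the fit (372, 632 and 137). DESeq2 called 126 of the 129 in the same direction, and the other 2 fits all 129. Other scalings gave 125 to 154 genes, a stricter filter 146 and limma voom 142, each within 1.5 times. Without each library in turn, 56 to 273 genes passed, 16 to 128 higher and 38 to 145 lower, with 4 to 16 over 2-fold. The cause of these moves was not tested. The share of higher calls was 34.1%, and 46.9% without replicate 2 of set 2.

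With the column digit as a replicate block, 137 genes passed, 120 of them shared. Of the 47 named genes, GABARAPL1, PFKM, POLA2 and ZNF75A were lost under it. Deviations from the set mean correlated at 0.05, -0.04 and -0.05 between same-numbered libraries over 12254 genes. Between unlike-numbered libraries the correlations ran from -0.07 to 0.10. With 3 libraries per set, these values cannot settle whether the digits mark a shared culture or batch. No named gene changed direction in any alternative run, which was nearly fixed in advance for the called ones, since their sets did not overlap. Depth limits the low genes: 3 counts come to 0.182 to 0.203 CPM in these libraries.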

Other observations

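The called genes given here belong to no list and were chosen after their values were seen. LUC7L3, a splicing factor, stood at 547, 531 and 483 CPM in set 2 and at 348, 430.2 and 363 CPM in set 4 (log2 difference 0.45, SE 0.07, edgeR adjusted p = 0.00167). SON, a large protein of nuclear speckles, was at 0.31, THOC2, of the THO export complex, at 0.34, CCAR1 at 0.40, the corepressor NCOR1 at 0.43 and UPF2, of nonsense-mediated decay, at 0.48, all called higher in set 2. For LUC7L3, NCOR1, CCAR1, THOC2, SON and UPF2 replicate 2 was the highest of the 3 set 4 libraries.

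Among the falls, HAND1, a developmental transcription factor, stood at 17.7, 19.6 and 19.9 CPM against 33.7, 31.3 and 29.1 CPM (-0.72, SE 0.11, adjusted p = 0.00105). TSC22D3, the glucocorticoid-induced leucine zipper, stood at 231, 228 and 248 CPM against 334, 320.5 and 327 CPM (-0.47, SE 0.06). SOX4 was at -0.54, SAT1, the spermidine acetyltransferase, at -0.51 and ID2 at -0.34. PCBP1 (-0.69), DDX39B (-0.61) and TUBA1B (-0.49) were also called lower; each has close copies in the genome among which reads may be shared.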
